A study of Drosophila melanogaster with 26 samples.

Results

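The effect of dietary sugar on the larval fat body was described in the offspring of stock 60100, using 8 of the 26 RNA sequencing libraries of the series. They were chosen by their labels, as the libraries numbered 67, 68, 83 and 84 (control diet, 0.15 M sucrose) and 75, 76, 91 and 92 (high-sugar diet, 0.7 M sucrose). Fat body came from female larvae of Drosophila melanogaster in the wandering stage, the end of larval life. Males of 60100, a control stock of the VDRC (a fly RNAi collection), had been mated with virgins carrying UAS-Dcr2 on the X chromosome together with r4-GAL4, a line used to drive transgenes in fat body. Every larva of both diets therefore carried the Dicer-2 transgene and the driver, and no RNAi construct is named for these crosses. The food was a modified semi-defined medium. Tissue was obtained by dissection or by shearing and centrifugation, and the labels do not say which way was used for which library. Nor do they name separate batches of larvae for the libraries, and the p-values measure only the spread between libraries, which may be technical. The other r4-GAL4 set, used below for comparison, had w1118 fathers and 3 libraries per diet (control 55, 56 and 57; high sugar 61, 62 and 63), with the same UAS-Dcr2 and driver.

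The larval fat body is the fly's counterpart of liver and adipose tissue. It takes up sugar from the haemolymph, turns it into glycogen, trehalose and triglyceride, and secretes storage proteins, immune peptides and hormones. Sugar flux through glycolysis supplies glycerol-3-phosphate for triglyceride, while the pentose phosphate pathway and malic enzyme supply the NADPH that fatty acid synthesis consumes. Excess dietary sucrose is known in the fly as a way to raise stored fat and circulating sugar.

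The deposited values are expression ratios. In each library the upper quartile over a set of 9853 features equalled 1, so a value of 5 means 5 times the upper quartile of that library. Depth is unknown. Changes are differences of log2(value + 1) between diets, a scale that understates the change of low genes. Of 14659 features, 2471 (16.9%) had a mean of at least 1 over the 8 libraries and were tested.

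Libraries 67 and 83, and libraries 75 and 91, were near-identical. The SD over genes of the log2 difference was 0.24 between 67 and 83 (r = 0.989 across genes) and 0.27 between 75 and 91 (r = 0.987), against 0.34 to 0.61 for the other pairs of one diet and 0.44 to 0.80 for pairs of different diets. Each such pair was averaged and counted as 1 sample, which leaves 3 samples per diet. High-sugar library 92 stood apart. On the first principal component, which held 51.1% of the variance, the controls lay between -17.25 and -8.51 and libraries 75, 76 and 91 between 11.83 and 18.38, while library 92 lay at 1.14. Results were therefore also computed without it. Fat body markers were the most abundant of the 12 marker lists. Their summed level was 13900 to 14900 in controls and 9400 to 13100 on high sugar. The groups did not overlap on the deposited scale, the only scale on which sums were taken. Median-of-ratios factors were 1.07 to 1.08 in controls and 0.888 to 0.993 on high sugar. Dividing by them would bring these groups closer, so the separation is not shown beyond the deposited scale. Of the 8 markers 1 (Lsp1alpha, 12.5%) had all high-sugar libraries below all controls, against 10.3% of all genes tested. None had all of them above, and the change of Cg25C was positive (0.26). Fewer fat body cells and less of these RNAs per cell cannot be told apart in bulk tissue.

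**Figure D1:**
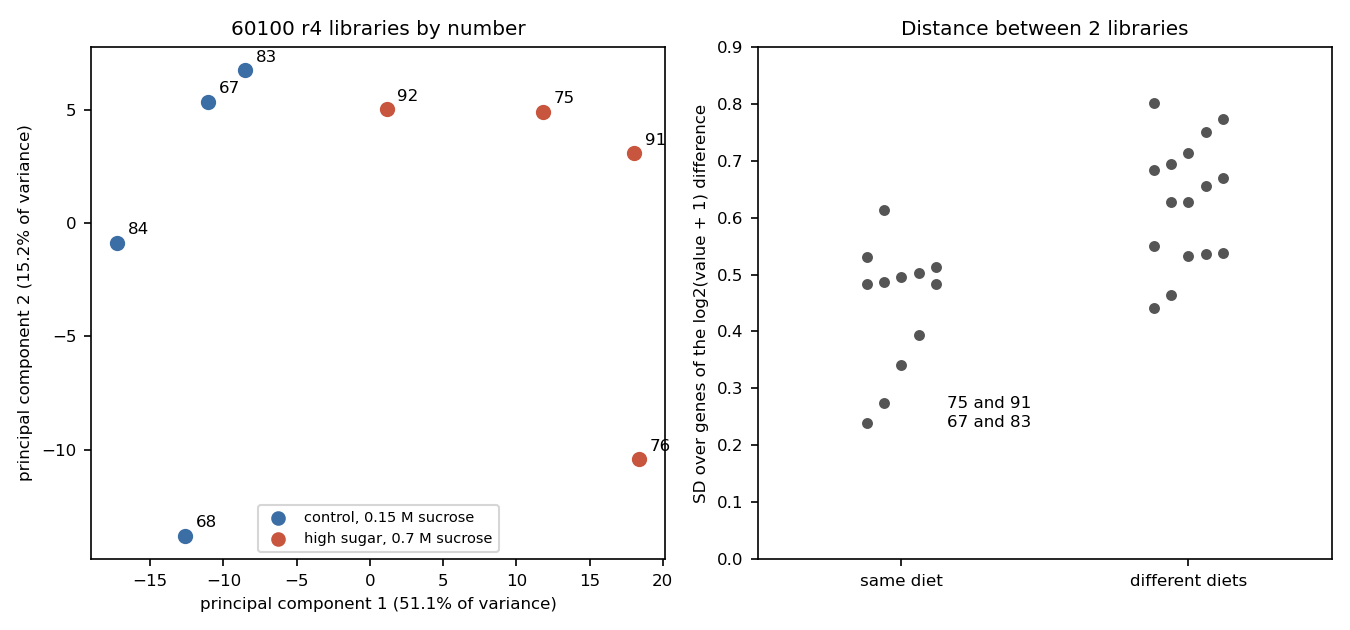
The left panel places the 8 libraries on the first 2 principal components of log2(value + 1) over the 2471 genes tested; each point is 1 library, labelled with its number. The right panel gives, for every pair of libraries, the SD over genes of their log2 difference. Libraries 67 and 83 (0.24) and 75 and 91 (0.27) are the closest pairs, and library 92 lies between the diets.

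High sugar changed the level of 22 genes past the threshold (limma, two-sided, Benjamini-Hochberg adjusted p under 0.05, 3 samples against 3). This is 0.89% of the genes tested, with 17 higher (0.688%) and 5 lower (0.202%). The smallest adjusted p was 0.0183, and 549 genes (22.2%) had an unadjusted p under 0.05. In all 22 genes the 4 high-sugar libraries lay on one side of the 4 controls. Such a separation was seen in 381 genes in the upward direction (15.4%) and in 255 in the downward direction (10.3%), and without library 92 in 716 (29%) and 435 (17.6%). After median-of-ratios scaling the separated genes were 609 higher and 138 lower, and after quantile normalization 298 higher and 319 lower, so the balance of directions over all genes depends on the scaling. The calls divided 16 higher to 8 lower after quantile normalization. With no filter on the mean, 80 of 9202 genes were called, 28 higher and 52 lower, so the balance of the calls turned there. Of the 17 higher genes, 11 had a control mean under 1 and reached the minimum mean only through the high-sugar libraries, and 3 of the 5 lower genes had a high-sugar mean under 1. Over all genes tested, 139 had a control mean under 1 and 116 a high-sugar mean under 1. The share of members separated in a list is set below against 15.4% upward and 10.3% downward over all genes tested, and the share at an unadjusted p under 0.05 against 22.2%.

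The number of calls also depended on single samples. Without library 92 there were 143 calls (5.79%), 93 higher (3.76%) and 50 lower (2.02%), and all 22 genes remained among them. Without library 84 there were 0 calls with limma, although 359 genes had an unadjusted p under 0.05. Leaving out libraries 75 and 91 gave 1 call, leaving out 67 and 83 gave 7, and leaving out 68 gave 14. Of these calls 1, 5 and 9 were among the 22. Leaving out 67 and 83 also raised the number of genes separated upward, to 597. Library 92 was the high-sugar library nearest to the controls in 274 of the 381 genes separated upward (71.9%) and in 195 of the 255 separated downward (76.5%). It was set aside for lying near the controls, so a call gained without it is no independent support. Below, the adjusted p without 92 is printed only for some genes that passed without it. Men (0.0683), desat1 (0.0799) and PyK (0.0910) did not pass with limma without 92.

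The largest rise was that of CG15067 (BomBc2), a Bomanin, one of the short secreted peptides that fat body makes under Toll signalling. Its level in control libraries 67, 68, 83 and 84 was 0.615, 3.15, 0.619 and 1.01, and in high-sugar libraries 75, 76, 91 and 92 it was 34.5, 61.9, 38.6 and 22.1. The lowest high-sugar library was thus well above the highest control. The change was 3.99 on the log2 scale (SE 0.46, adjusted p = 0.0212).

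The next was sad (shadow, CG14728), a mitochondrial cytochrome P450 that carries out a late step of ecdysone synthesis in the larval ring gland. In the same order of libraries its level was 1.57, 6.78, 1.84 and 1.6 on the control diet and 35.9, 31.4, 43.6 and 22.6 on high sugar. The diets did not overlap, and control library 68 was the highest of the controls (log2 change 3.05, SE 0.45, adjusted p = 0.0327). The other ring gland markers measured were at or near 0: nvd and spok were listed at 0 in all 8 libraries, dib in 7 of them, and Akh did not exceed 0.293. sad therefore made up nearly all of the summed ring gland list, which was 1.57 to 7.01 in controls and 23.1 to 43.6 on high sugar.

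Gpdh was the 1 call among 10 tested genes of the triglyceride synthesis and lipid droplet list (10%, against 0.89% of all genes), whose median log2 change was 0.06. Gpdh (CG9042), the glycerol-3-phosphate dehydrogenase that links glycolysis to triglyceride, was at 3.04, 1.65, 3.78 and 1.39 in the controls and 9.95, 7.48, 11.6 and 8.28 on high sugar, with no overlap (log2 change 1.68, SE 0.26, adjusted p = 0.0444). fu12 (Agpat2), an acyltransferase that makes phosphatidic acid, was at 0.506, 0.688, 0.721 and 0.246 in the controls and 2.71, 2.28, 2.83 and 2.60 on high sugar. It rose by 1.24 (SE 0.15, adjusted p = 0.0263). The high-sugar libraries were close to each other for this gene, library 92 included. fu12 and the next 3 genes belong to none of the lipid lists and are set beside Gpdh after their values were seen. CG5991 (Pisd), a phosphatidylserine decarboxylase, rose by 1.42, the acyl-CoA oxidase Acox57D-d by 0.97 and CG1882 (puml), a hydrolase of the α/β fold family, by 0.81 on the same scale. These 3 genes had mean levels under 5 in both diets.

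Other rises fell into no single list. CG3348 was at 2.85, 0.761, 3.27 and 1.23 in controls and 19.1, 15.5, 19.5 and 19.7 on high sugar (log2 change 2.92, SE 0.31, adjusted p = 0.0183). Library 92 was the highest high-sugar library for this gene, unlike for most. obst-J, of the obstructor family of chitin-binding proteins, was at 1.16 to 1.61 in the controls and at 10.2, 13.6, 12.3 and 7.47 on high sugar (log2 change 2.28, SE 0.22, adjusted p = 0.0183). CG3868 was at 0.517 to 1.28 in the controls and 4.69 to 7.96 on high sugar (log2 change 1.93, SE 0.21, adjusted p = 0.0183). The remaining rises were those of the cytochrome P450 gene Cyp4e3 (1.87), CG14275 (1.86), the carbonic anhydrase gene CG6074 (CAH9, 1.81), CG15282 (1.76), Ag5r2 (1.5), CG7675 (1.28) and CG15347 (0.96), as log2 changes. Their adjusted p-values in limma ran from 0.0183 to 0.0444.

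Of the 5 genes that fell, CG6870 had the highest level. It was at 19.5, 21, 17.6 and 20.8 in the controls and 8.76, 6.65, 9.21 and 7.23 on high sugar, and it fell by 1.3 on the log2 scale (SE 0.18, adjusted p = 0.0324). Both groups were tight and far apart. CG10960 (nebu), of the facilitative sugar transporter family, was at 3.54, 4.16, 3.83 and 2.46 in the controls and 0.807, 0.498, 1.01 and 0.829 on high sugar. It fell by 1.33 (SE 0.19, adjusted p = 0.0324), the largest of the 5 changes. CG32335 (meep) fell by 1.14, Lac (Lachesin, a cell surface protein of septate junctions) by 1.0 and CG15343 by 0.93 on the same scale.

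**Figure D2:**
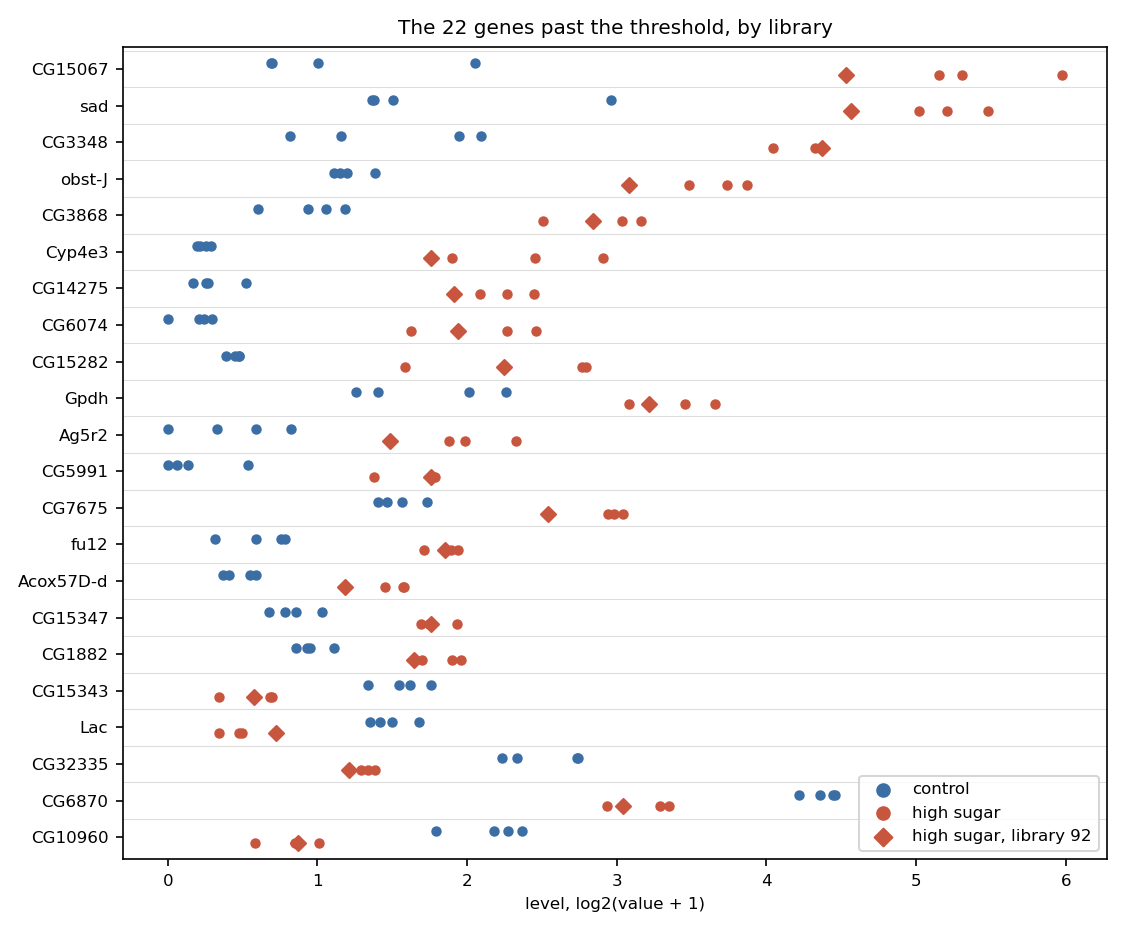
Level as log2(value + 1) of each of the 22 genes past the threshold, ordered by change; each blue point is 1 control library, each red point 1 high-sugar library, and the diamond is library 92. The diets do not overlap in any of the 22 genes.

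Some of the largest changes with no overlap did not pass the threshold, and the genes of this paragraph were chosen after their values were seen. CG14265 and CG13947 were listed at 0 in all 4 controls and were at 1.79 to 11.3 and 1.44 to 12.2 on high sugar (adjusted p = 0.0549 and 0.0760). CG31775 had high levels in both diets, 269 to 481 in controls and 986 to 1193 on high sugar (log2 change 1.44, SE 0.25, adjusted p = 0.0549). CG42586 was 0.866 times CG31775 in every library, so these loci may share reads and are treated as 1 signal. In the other direction, the metallothionein gene MtnA was at 30.8 to 65.5 in controls and 12.0 to 26.8 on high sugar (log2 change -1.41, adjusted p = 0.117).

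In the lists of glycolysis and of trehalose, glycogen and gluconeogenesis 0 genes were called with limma, and each list had 2 at an unadjusted p under 0.05 (18.2% and 15.4%). The 11 tested members of glycolysis had a median log2 change of 0.37 against 0.09 over all genes tested (0.22 without libraries 75 and 91). In that list 1 gene was separated upward and 1 downward (9.09% each), but 7 and 1 without libraries 67 and 83, and 3 and 1 without 92. Pyruvate kinase (PyK) was at 4.40, 5.41, 4.66 and 3.88 in the controls and 7.98, 6.79, 8.34 and 7.47 on high sugar (log2 change 0.60, SE 0.17, adjusted p = 0.125). Hex-A, a hexokinase at the entry of the pathway, lay on the other side, at 1.28 to 1.52 in the controls and 0.794 to 0.915 on high sugar (log2 change -0.38, adjusted p = 0.126). Neither gene's libraries overlapped between diets. Hex-A had a high-sugar mean under 1, so it reached the minimum mean only through the controls. It was the 1 member of the list separated downward. Among 13 genes of trehalose, glycogen and gluconeogenesis the median was 0.10, close to that of all genes (0.03 without 84 and -0.01 without 75 and 91). Tps1, the trehalose synthase, was at 8.34 to 13 and 13.8 to 22.9 (0.51, adjusted p = 0.253), and the gluconeogenic Pepck overlapped between diets (-0.39, adjusted p = 0.476).

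The pentose phosphate and NADPH list had a median log2 change of 0.55 over 9 tested members, of which 3 (33.3%, against 15.4%) had all high-sugar libraries above all controls, 5 (55.6%, against 22.2%) had an unadjusted p under 0.05 and 0 were called with limma. The number separated upward was 5 without libraries 67 and 83 and 6 without 92. Pgd, 6-phosphogluconate dehydrogenase, was at 7.47, 9.41, 9.07 and 4.91 in the controls and 20.7, 20.5, 25.8 and 15 on high sugar (log2 change 1.29, SE 0.27, adjusted p = 0.0787; 0.0468 without library 92). Malic enzyme (Men) was at 3.17 to 7.74 and 9.29 to 17.6 (1.09, adjusted p = 0.126). Zw, glucose-6-phosphate dehydrogenase, was at 1.20 to 2.08 and 2.54 to 3.37 (0.55, adjusted p = 0.136). These 3 enzymes each reduce NADP, and none of them overlapped between the diets.

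Fatty acid synthesis genes lay on both sides of 0, and 0 of 8 tested members were called with limma, with 2 at an unadjusted p under 0.05 (25%). The desaturase desat1 was at 14.6, 16.2, 16.9 and 9.54 in the controls and 30.7, 24.4, 30.6 and 31.4 on high sugar (log2 change 1.03, SE 0.25, adjusted p = 0.0985), and AcCoAS, acetyl-CoA synthase, was at 6.47 to 17.7 and 20.7 to 27.6 (0.92, adjusted p = 0.193). Both were separated between diets. Fatty acid synthase (CG3523) overlapped, at 2.07 to 6.13 and 3.05 to 8.07 (0.41, adjusted p = 0.518), as did ATP citrate lyase (ATPCL; 0.19, adjusted p = 0.698). HLH106 (SREBP), the transcription factor of the pathway, was at 2.28 to 3.54 in the controls and 1.19 to 2.18 on high sugar (-0.46, adjusted p = 0.229).

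For genes of the mitochondrion the differences were small. The list of the respiratory chain and ATP synthase had a median of 0.33 over 23 members, with 4 separated upward (17.4%, near the 15.4% of all genes) and 0 downward, and 0 called with limma. At an unadjusted p under 0.05 there were 4 (17.4%, against 22.2%). The number separated upward was 13 without libraries 67 and 83 and 12 without 92. The Rieske protein gene RFeSP was at 4.75 to 5.92 and 6.26 to 11.6 (0.72, adjusted p = 0.152). The 13 members of pyruvate dehydrogenase and the TCA cycle had a median of -0.07 and 2 separated upward (15.4%, equal to the share over all genes). The median was 0.02 without libraries 67 and 83 and 0.11 without 76, so its sign turned. In fatty acid oxidation 0 of 12 were called with limma, with 2 at an unadjusted p under 0.05, and scu was at 28.8 to 31.9 in the controls and 39.9 to 66.6 on high sugar (0.80, adjusted p = 0.131; 0.0435 without library 92).

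In the Bomanins and immune-induced peptides 1 of 8 tested genes was called (CG15067) and 3 were separated upward (37.5%, against 15.4%). The list holds 15 genes, of which these 8 reached the minimum mean, and 3 of the 8 had a control mean under 1. Of the 3 separated upward, 2 had a control mean of at least 1. The median log2 change was 1.25, but it rested in part on library 76 and was 0.70 without it. IM2 was at 0 to 1.01 in the controls and at 0.276, 15.2, 0.219 and 0.229 on high sugar, so library 76 alone was high, and CG15065 had the same pattern, with 6.76 in library 76 and 0.329 to 0.461 in the others. Without library 76 the log2 changes of IM2 and CG16712 were -0.08 and -0.32, against 1.15 and 0.05 with it. CG15067 was still called without that library (3.63, adjusted p = 0.0315). Without control library 68, 6 of the 8 were separated upward and the median was 1.74. CG16836 (BomT2) was at 0.288, 2.34, 0.497 and 0.696 in the controls and 5.60, 9.0, 5.61 and 5.25 on high sugar (1.90, SE 0.35, adjusted p = 0.0549). CG15068 (BomS6) was at 0.411 to 2.62 and 3.53 to 16.8, with library 76 the highest (1.86, adjusted p = 0.143). Control library 68 was the highest control for these genes, as it was for CG15067. The classical antimicrobial peptides had a median of -0.59 over 9 tested members, with 0 called with limma and 3 at an unadjusted p under 0.05 (33.3%, against 22.2%). The median was -0.20 without library 68, -0.21 without 84 and -0.32 without 75 and 91. Attacin B (AttB) was at 2.57 to 6.10 in the controls and 1.32 to 1.95 on high sugar (-0.93, adjusted p = 0.117), and Drosocin (Dro) overlapped (-1.49, adjusted p = 0.131). PGRP-SB2, a secreted peptidoglycan recognition protein, was at 6.63, 0.193, 3.28 and 14 in the controls and listed at 0 in all high-sugar libraries (adjusted p = 0.176). The controls of that gene were widely spread, and it reached the minimum mean only through them.

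Proteasome subunits, which degrade ubiquitinated proteins, had small changes per gene. Of 33 tested proteasome subunits, 15 (45.5%) had all high-sugar libraries above all controls, against 15.4% of all genes tested, and 0 were separated downward. The median log2 change was 0.33, 0 members were called with limma and 12 had an unadjusted p under 0.05 (36.4%, against 22.2%). Prosbeta3, of the catalytic ring, was at 5.37, 4.80, 4.58 and 6.36 in the controls and 10.3, 8.36, 7.0 and 10.5 on high sugar (0.68, adjusted p = 0.117). Prosalpha1 was at 7.12 to 9.38 and 11.4 to 16. The near-identical copy CG30382 had similar values, so the 2 may share reads, and both are counted among the 15. The count of separated subunits was 24 after median-of-ratios scaling and 12 after quantile normalization, and 24 without library 84.

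Of 84 cytosolic ribosomal protein genes, 11 were separated upward (13.1%, near the background) and 2 downward, with a median of 0.34. After quantile normalization the split was 7 to 5 with a median of 0.07, and after median-of-ratios scaling 29 to 0. The number separated upward was 23 without libraries 67 and 83, 24 without 84 and 46 without 92, and the median was 0.14 without 76 and 0.51 without 92. Of 34 translation initiation and elongation factors 10 were separated upward (29.4%, against 15.4%) and 4 downward (11.8%, near the 10.3% of all genes), with 7 downward without libraries 67 and 83 or without 92. Of the 10, 9 had a control mean of at least 1, and 2 of the 34 had a high-sugar mean under 1. The median of that list was 0.14 as deposited, 0.30 after median-of-ratios scaling and -0.01 after quantile normalization, so its sign turned. In both lists 0 genes were called with limma, with 3 and 4 at an unadjusted p under 0.05 (3.57% and 11.8%, against 22.2%).

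The vacuolar ATPase list lay on the low side. This proton pump acidifies lysosomes and endosomes. Of 14 tested subunits 6 (42.9%) had all high-sugar libraries below all controls, against 10.3% of all genes, and 1 lay above. The median was -0.26, and 0 were called with limma (4 at an unadjusted p under 0.05, 28.6%). Vha26 was at 2.79, 2.93, 2.66 and 2.65 in the controls and 1.49, 0.860, 1.11 and 2.03 on high sugar (-0.68, SE 0.19, adjusted p = 0.126; 0.0420 without library 92). Vha36 was the 1 subunit above, at 5.02 to 6.15 and 6.71 to 12.1 (0.60, adjusted p = 0.182). The count separated downward was 2 after median-of-ratios scaling and 7 after quantile normalization. Of the 14 tested subunits 1 had a high-sugar mean under 1 and reached the minimum mean only through the controls. The lysosomal membrane protein gene CG3305 (Lamp1) was at 2.59 to 2.72 and 0.830 to 1.95 (-0.68, adjusted p = 0.124), while the lysosomal protease gene Cp1 (cathepsin L) was at 22.4 to 35.4 and 46.7 to 51 (0.69, adjusted p = 0.131).

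Purine genes had a median of -0.29 over 10 tested members, with 4 separated downward (40%, against 10.3%) and 0 upward, and 0 called with limma (1 at an unadjusted p under 0.05, 10%). ade3 (Gart), a trifunctional enzyme of purine synthesis, was at 26.2 to 36.1 in the controls and 20.3 to 21.7 on high sugar (-0.53, adjusted p = 0.172). The count separated downward was 0 after median-of-ratios scaling, 6 after quantile normalization and 7 without library 68. Of the 10 tested members 1 had a high-sugar mean under 1 and reached the minimum mean only through the controls. In the redox and glutathione list, 10 of 14 tested members had a positive change, with a median of 0.14. There 1 member was separated upward and 1 downward (7.14% each, against 15.4% and 10.3%), and 0 were called with limma. Its lowest change was that of catalase (Cat), a peroxisomal enzyme that degrades hydrogen peroxide. Cat was at 38.5 to 56.2 and 20.5 to 32.3 (-0.75, adjusted p = 0.152).

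**Figure D3:**
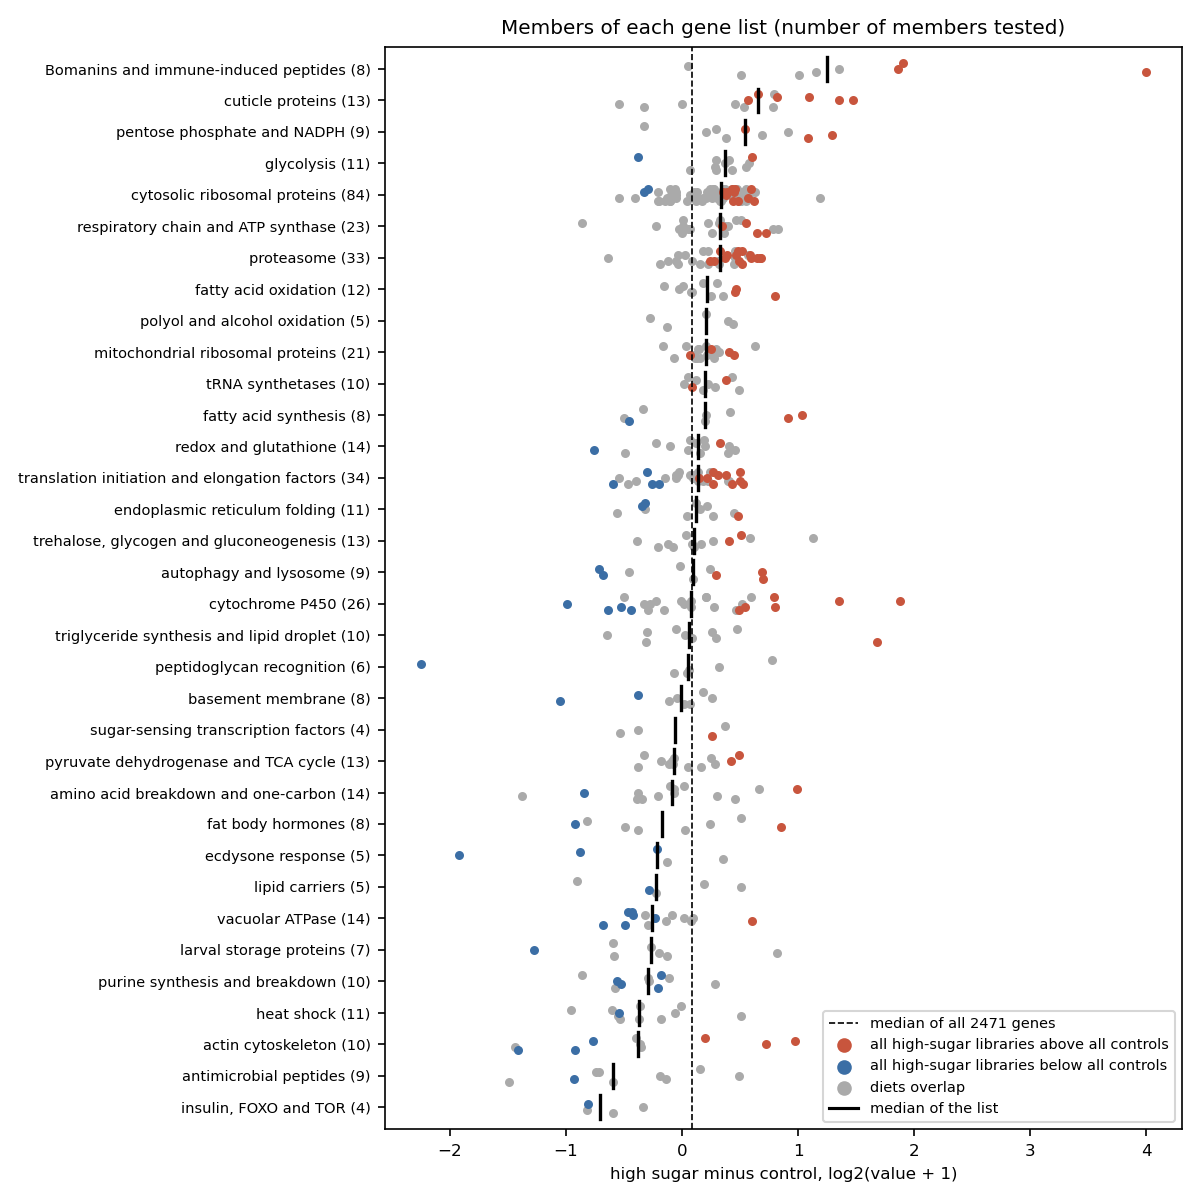
Diet change on log2(value + 1) of each tested member of the gene lists with at least 4 tested members; each point is 1 gene, red where all 4 high-sugar libraries were above all 4 controls, blue where all were below and grey where the diets overlapped. The short bar is the median of the list and the dashed line the median of all 2471 genes (0.09). Bomanins lie farthest to the right, with a median of 1.25.

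Of 9 fat body hormone genes 8 were high enough to test. In the insulin, FOXO and TOR list 4 of 16 were, and of the sugar-sensing transcription factors 4 of 8. Among the 8 hormone genes 1 was separated upward (12.5%, against 15.4% of all genes) and 1 downward (12.5%, against 10.3%). With limma 0 of these 8 were called. CG14375 (CCHa2), a peptide hormone by which nutrient-fed fat body acts on insulin-producing neurons, was at 5.04, 4.38, 4.36 and 5.86 in the controls and 8.61, 12.0, 7.75 and 9.48 on high sugar (log2 change 0.86, SE 0.19, adjusted p = 0.0889). The diets did not overlap. CG15917 (Gbp1), a growth-blocking peptide, was at 10.7 to 23.2 and 4.5 to 9.69 (-0.92, adjusted p = 0.172), with no overlap in the opposite direction. Ilp6, the insulin-like peptide of fat body, overlapped between diets, at 3.07 to 6.94 and 0.981 to 4.42 (-0.82, adjusted p = 0.251). Thor, the translation repressor 4E-BP, was at 44.8 to 61.8 and 17.2 to 43.0 (-0.81, adjusted p = 0.221). sugarbabe, a sugar-responsive transcription factor, overlapped (0.37, adjusted p = 0.567), as did daw, an activin-like ligand (-0.38, adjusted p = 0.421).

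The ecdysone-response list holds 18 genes, of which 5 were tested. Of these 3 (60%, against 10.3%) had all high-sugar libraries below all controls, with 0 called with limma and 2 at an unadjusted p under 0.05 (40%). ImpE2 was at 4.34, 11.8, 4.0 and 6.36 in the controls and 1.09, 0.786, 0.588 and 1.72 on high sugar (-1.92, SE 0.34, adjusted p = 0.0549; 0.0429 without library 92). br (Broad), an early ecdysone target, was at 1.97 to 4.12 and 0.788 to 1.80 (-0.87, adjusted p = 0.117). The other separated member was shd, which makes the active hormone 20-hydroxyecdysone in peripheral tissue and is thus a synthesis enzyme. It was at 1.41 to 1.64 and 0.863 to 1.34 (-0.22, adjusted p = 0.301). After median-of-ratios scaling 1 gene was separated upward and 2 downward. The storage protein gene Lsp1alpha, which fat body expresses late in larval life, was at 1117, 806, 1204 and 915 in the controls and 504, 209, 424 and 614 on high sugar (-1.28, SE 0.39, adjusted p = 0.142), whereas Lsp2 overlapped between diets, at 3624 to 4556 and 3636 to 3950.

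Cytochrome P450 genes lay on both sides. Of 26 tested in this list, 6 (23.1%, against 15.4%) were separated upward and 4 (15.4%, against 10.3%) downward. Of the 6, 3 had a control mean of at least 1. Over the 26 genes, 3 had a high-sugar mean under 1 and reached the minimum mean only through the controls. Cyp4e3 was the 1 call in the list, against 0.89% of all genes. The list does not hold sad, a cytochrome P450 gene that was also called. The split was 10 to 4 without libraries 67 and 83 and 7 to 7 without 68. Cyp4d1 was at 23.8, 16.4, 24.9 and 22.6 in the controls and 56.4, 66.2, 64.6 and 40.8 on high sugar (1.35, SE 0.26, adjusted p = 0.0569; 0.0391 without library 92). Cyp6d5 was at 8.32 to 12.3 and 3.21 to 5.74 (-0.99, adjusted p = 0.0777; 0.0445 without library 92). The median of the list was 0.08, close to that of all genes, and -0.03 without 68.

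Of the markers of other tissues sad was the 1 call, and the summed levels of some lists did not overlap between the diets. The single markers named from each list were chosen after their values were seen. Of 8 tested body wall muscle markers, 6 (75%, against 15.4%) had all high-sugar libraries above all controls and 0 were called with limma, with 6 at an unadjusted p under 0.05. Of the 6, 3 (Mlc1, Tm2 and wupA) had a control mean under 1 and reached the minimum mean only through the high-sugar libraries. For these 3 the filter fixed a higher high-sugar mean, though not a separation of all libraries. Of the 5 markers with a control mean of at least 1, 3 were separated upward. The summed level of the 13 muscle markers was 13.1 to 20.6 in controls and 24.6 to 75.2 on high sugar. The myosin light chain gene Mlc2 was at 2.99, 2.20, 3.71 and 2.61 in the controls and 17.9, 13.4, 26.5 and 6.43 on high sugar (1.88, adjusted p = 0.0777), with library 92 nearest to the controls. Mhc, the muscle myosin heavy chain, stayed below 1 in all libraries, at 0.103 to 0.299 and 0.268 to 0.727.

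Cuticle protein genes, which the epidermis expresses, had a median log2 change of 0.66 over 13 tested members. Of these 6 (46.2%, against 15.4%) were separated upward and 0 downward, and 0 were called with limma, with 6 at an unadjusted p under 0.05 (46.2%, against 22.2%). These 13 are the members of a list of 122 that reached the minimum mean. Of the 6 separated upward, 5 had a control mean of at least 1. The median was 0.31 without library 68, and 9 were separated upward without 67 and 83. Pcp, a pupal cuticle protein gene nested in the ade3 (Gart) gene, was at 20.7, 25.7, 14.3 and 35.4 in the controls and 54.1, 121, 52.7 and 57.8 on high sugar (1.48, adjusted p = 0.117). Whether the counting used strand is not stated, so reads of Pcp and ade3 may not be told apart. The epidermis markers summed to 53.9 to 126 in controls and 128 to 250 on high sugar, and 6 of the 11 were at 0 in all libraries. The part of these tissues in the cuticle, chitin-binding and muscle genes was not tested.

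The midgut list summed to 19.1 to 172 in controls and 76.3 to 194 on high sugar, and the groups overlapped. Of 14 tested members 3 (21.4%, against 15.4% of all genes) were separated upward and 1 (7.14%, against 10.3%) downward. Of the 3, 2 had a control mean of at least 1. The median log2 change was 1.07 (0.72 without library 68), and 0 members were called with limma. At an unadjusted p under 0.05 there were 5 (35.7%, against 22.2%). The number separated upward was 10 without libraries 67 and 83 and 7 without 76. Whichever sample was left out, 13 of the 14 changes were positive. The serine protease gene Jon66Ci was at 0.147 to 0.876 and 2.52 to 11.3 (2.14, adjusted p = 0.0592), with a control mean under 1. CG30360 (Mal-A6) was the member separated downward, at 6.04 to 17.1 and 3.93 to 5.35 (-1.02, limma adjusted p = 0.152). Jon65Aiv, related to Jon66Ci, was at 35.8, 0.778, 51.9 and 3.59 in the controls and 33.3, 13.9, 21 and 49.7 on high sugar. Control libraries 68 and 84 were low for Jon65Aiv and libraries 67 and 83 were not. Salivary gland markers summed to 159 to 567 and 386 to 755, and haemocyte markers to 32.0 to 51.7 and 17.3 to 31.3. The haemocyte sums did not overlap on the deposited scale, and median-of-ratios scaling would bring them closer. nimC2 held 39.1% to 81.6% of these sums, and the defining markers Hml and eater did not exceed 0.163. The nervous system list summed to 19.8 to 21.5 and 21.9 to 27, and Syt1 made up nearly all of it, while elav did not exceed 0.0609. The sums of trachea (1.42 to 1.73 and 0.496 to 0.982) and imaginal disc (0.535 to 1.26 and 0.0942 to 0.377) were low and did not overlap, and germline markers summed to no more than 0.0239.

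**Figure D4:**
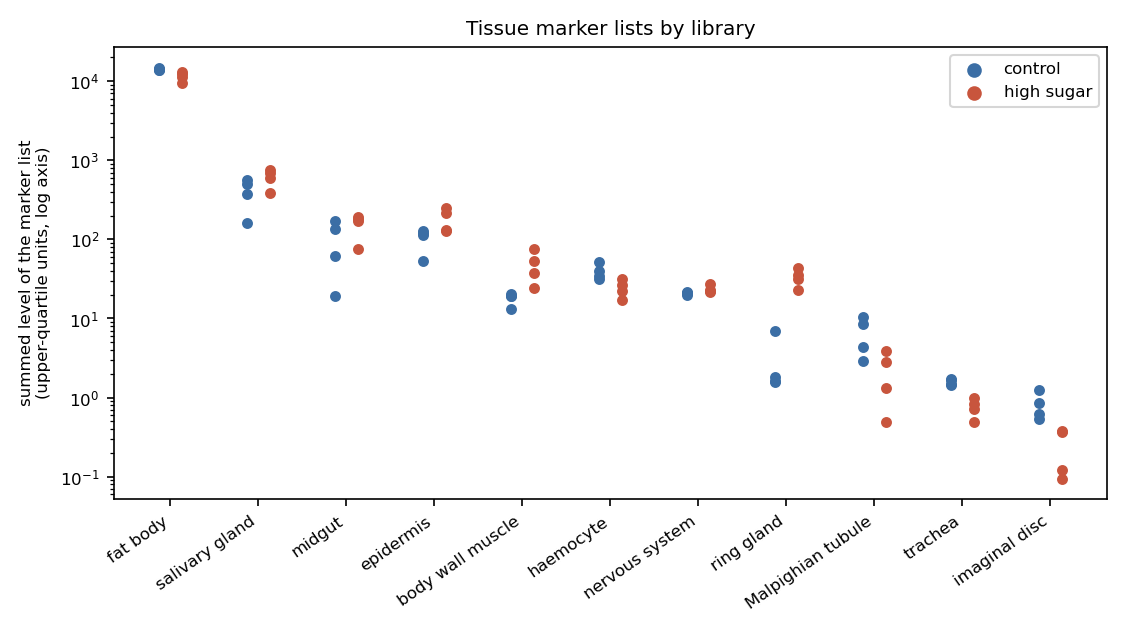
Summed level of 11 tissue marker lists in each library, on a log axis, with 4 control libraries in blue and 4 high-sugar libraries in red per list. Fat body markers (9400 to 14900) exceed every other list. On the deposited scale, muscle, epidermis, ring gland and nervous system lists are higher in all high-sugar libraries. Fat body, haemocyte, trachea and imaginal disc lists are lower in all of them on that scale. The ring gland list is nearly all sad, and midgut, salivary gland and Malpighian tubule lists overlap.

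Among 10 actin cytoskeleton genes 0 were called with limma, and 6 had an unadjusted p under 0.05 (60%, against 22.2%). The more abundant cytoplasmic actin gene Act5C overlapped between diets, at 82 to 165 in the controls and 74.1 to 90.2 on high sugar (-0.35, adjusted p = 0.447). The other cytoplasmic actin gene, Act42A, was at 6.97, 9.19, 6.95 and 8.78 in the controls and 2.25, 1.45, 2.92 and 3.77 on high sugar (-1.41, SE 0.26, adjusted p = 0.0549; 0.0379 without library 92), and profilin (chic) was at 16.3 to 27.1 and 7.35 to 15.6 (-0.92, adjusted p = 0.152). Neither overlapped between diets. In the same list, Sop2 (Arpc1), a subunit of the actin-nucleating Arp2/3 complex, was at 5.63 to 5.95 and 8.10 to 11.7 (0.72, adjusted p = 0.107). As a whole 3 members (30%) were separated upward, against 15.4% of all genes, and 3 (30%) downward, against 10.3%.

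Dcr-2, the transgene carried by all 8 libraries together with the endogenous gene, was present in both diets. It was at 17.8, 36.4, 14.9 and 24.3 in the controls and 10.9, 4.21, 6.11 and 18 on high sugar. The highest high-sugar library, 92, lay above the lowest controls, so the diets overlapped (log2 change -1.37, SE 0.49, adjusted p = 0.176). In w1118 r4 the mean was 32.8 in controls and 14 on high sugar (-1.16, adjusted p = 0.173). white, the eye pigment gene carried by many transgenes as a marker, was at 2.58 to 3.89 and 3.14 to 4.12 (0.16, adjusted p = 0.577). The part of the Dcr-2 level in the changes of other genes was not tested.

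The same comparison in w1118 r4, on libraries that 60100 r4 does not share, asks whether the diet effect recurs with another father stock. Levels of these sets are not on a common scale, so changes within each set are compared. In w1118 r4 limma called 329 of the 2471 genes (13.3%), 261 higher (10.6%) and 68 lower (2.75%). Of the 22 genes called in 60100 r4, 20 had the same sign in w1118 r4, against 71.9% of all genes tested, and 9 were also called there with that sign. These 9 were CG3348, obst-J, Cyp4e3, CG14275, CG6074, Gpdh, fu12, Lac and CG32335. The exceptions in sign were CG3868 and Ag5r2. Of the 381 genes separated upward in 60100 r4, 191 (50.1%, and 28.6% of the 669 separated upward in w1118 r4) were also separated upward in w1118 r4, where 27.1% of all genes were. For the downward genes 79 of 255 were shared (31%, and 31.7% of 249), against 10.1% of all genes.

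The difference of the diet effects themselves passed the threshold for 2 genes (0.0809% of those tested), 1 in each direction (0.0405%), and 296 (12%) had an unadjusted p under 0.05. CG3868 was at 0.486, 1.20 and 1.78 in the w1118 r4 controls (55, 56 and 57) and 0.527, 0.282 and 0.585 on high sugar (61, 62 and 63), while it rose in 60100 r4. The difference, 60100 r4 minus w1118 r4, was 2.45 (SE 0.33, adjusted p = 0.0162). Ufd1-like (CG6233), an adaptor for degradation of ubiquitinated proteins, was close to 0 in the w1118 r4 controls, at 0.00462, 0.0139 and 0.00227, and at 2.68, 2.17 and 2.80 on high sugar. In 60100 r4 it was at 2.0 to 2.41 and 2.53 to 2.95, and the difference was -1.56 (SE 0.14, adjusted p = 0.000618). Ufd1-like lies outside the rule for named genes and was chosen after its values were seen. The number of such genes changed with single samples of 60100 r4: it was 26 without 67 and 83, 29 without 76, 11 without 92, and 1 without 68 or without 84. Leaving out a w1118 r4 library gave 5 (without 55), 4 (without 56 or 61) and 1 (without 62). CG3868 missed the threshold without 68 (adjusted p = 0.0581), 84 (0.0645) or 62 (0.0733).

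Among genes with a mean of at least 5 in any group, the next in order were Jon65Aiii, CG31789, Cyp4e3, CG9836 (IscU) and Sec61gamma, each with an adjusted p of 0.0533. Cyp4e3 was higher on high sugar in both stocks, from 0.143 to 0.223 up to 2.38 to 6.50 in 60100 r4 and from 0.128 to 0.331 up to 11.7 to 13.9 in w1118 r4. The midgut protease Jon65Aiii was at 16.7 to 44.2 in the w1118 r4 controls and 0.474 to 1.42 on high sugar, whereas in 60100 r4 the diets overlapped, at 1.80 to 29.2 and 9.68 to 35.9. CG15067, the gene with the largest rise in 60100 r4, was listed at 0 in all 3 w1118 r4 controls and reached 1.43, 0 and 1.28 on high sugar (difference 3.17, SE 0.62, adjusted p = 0.0533). A difference between the stocks was thus not called for it.

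**Figure D5:**
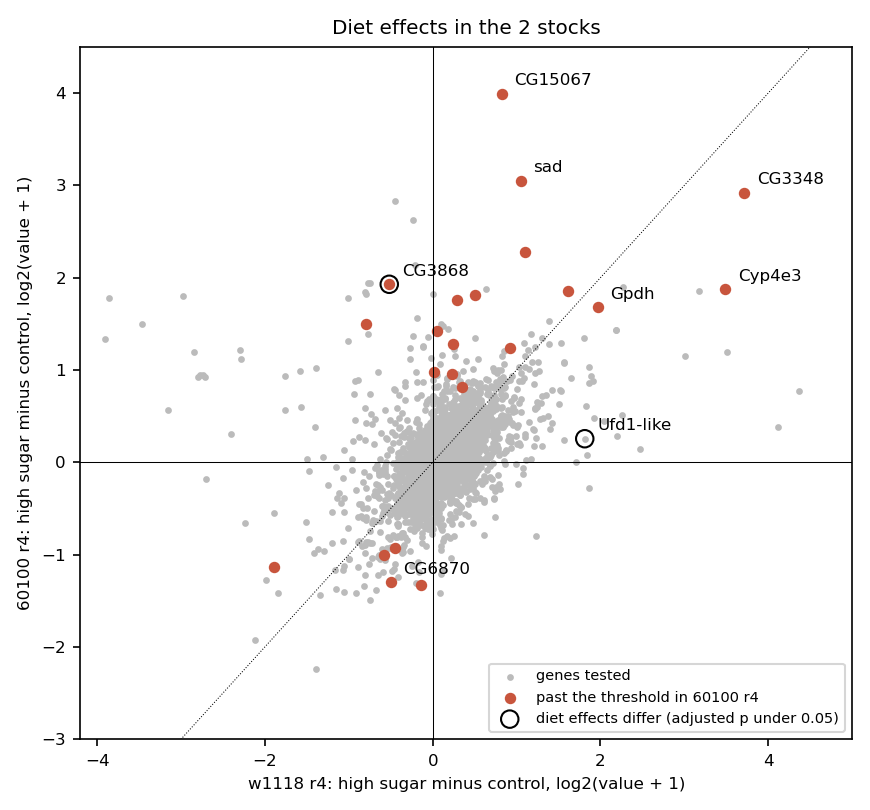
Diet change on log2(value + 1) in w1118 r4 (x axis) against 60100 r4 (y axis); each point is 1 of 2471 genes, the 22 genes called in 60100 r4 are red, and circles mark the 2 genes whose diet effects differed. The dotted line marks equal change. CG3868 lies above it, and Ufd1-like below.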

How the data were processed

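Reads were processed by the authors with TopHat 1.3.2, Bowtie 0.12.7 and Cufflinks 1.1.0 on dm3, per the submitters' processing notes; no source used here gives the annotation or filters. The deposited values are a ratio, each library divided by its own upper quartile; this was read from the values, since no header names it. The fits had been planned without a stated unit, and depth is unknown, so no counting interval is given. All columns were mapped to samples.

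Values were taken as log2(value + 1) and genes with a mean of at least 1 over the 8 libraries were tested with limma 3.58.1 in R 4.3.3 (empirical Bayes with a trend, two-sided, Benjamini-Hochberg over 2471 genes). Libraries 67 with 83 and 75 with 91 were averaged. The difference of diet effects was the interaction term over 60100 r4 and w1118 r4. The code was tested on simulated data. The rule for named genes took the 12 largest calls each way with a mean of at least 5 and up to 3 members of each list by adjusted p. It also took 15 set metabolic, hormone and control genes, the 6 smallest interaction p-values and the highest member of each marker list. The calls below the mean of 5 were added. Not every gene of the rule is named in the Results. Sgs8, Lcp1 and Uro, the highest of their marker lists, are left out there. Members, lists and tests were chosen with earlier results of these data known. Current symbols in parentheses come from RefSeq by locus tag (13537 of 14659 features matched); coordinates are not given, since that build is not dm3.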

Additional observations from a re-analysis of the deposited data

Results flagged for a closer look

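For 2 genes the effect of high sugar differed between the offspring of 60100 and of w1118 (limma interaction term, Benjamini-Hochberg adjusted). For CG3868 the difference in log2 change was 2.45 (SE 0.33, adjusted p = 0.0162), with 4 of 4 high-sugar libraries above the controls in 60100 r4 and a mean of 1.16 in the controls and 0.465 on high sugar in w1118 r4. For Ufd1-like the difference was -1.56 (SE 0.14, adjusted p = 0.000618), with levels near 0 in the 3 w1118 r4 controls and above 2 in the other libraries of both stocks. After averaging, each diet held 3 samples, so single libraries were not screened as outliers.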

How the results depend on the processing

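With the diet effect called for 22 genes, the count stayed within 1.5 times that number with a pseudocount of 0.1, quantile normalization, either library of each pair alone, no trend, robust weights, and libraries 83, 84, 91 and 92 only. It was 80 of 9202 genes with no filter on the mean (28 higher and 52 lower, a turned balance, with 18 of the 22 among them). The count was 13 with a mean of at least 5, and 36 with median-of-ratios scaling (which shifts the median log2 change of all genes from 0.088 to 0.225). With the spread shared over all 26 libraries it was 181. All 8 libraries as separate samples, so that near-identical pairs count as independent, gave 439. Adding the range of library numbers (67 to 76, 83 to 92) as a term to those 8 separate libraries gave 299. With libraries 67, 68, 75 and 76 only it was 0, where 511 genes had an unadjusted p under 0.05. Leaving out a control sample gave 0 to 14 calls and leaving out a high-sugar sample 1 to 143. The genes called were not always the same. Of the 22, 9 were among the 21 called with libraries 83, 84, 91 and 92 only (20 higher and 1 lower). Likewise 9 were among the 14 without 68, and 10 among the 16 without 76. With a mean of at least 5, a filter that leaves out some of the 22, 6 were among the 13. The 2 differing diet effects became 16 with a pseudocount of 0.1, 83 with no filter, 7 with a mean of at least 5, 11 with median-of-ratios scaling, 15 with quantile normalization, 52 with all libraries separate, 22 with the first library of each pair and 415 with robust weights. Leaving out 1 sample gave 1 to 26 for 60100 r4 controls, 3 to 29 for 60100 r4 high sugar, 2 to 5 for w1118 r4 controls and 1 to 4 for w1118 r4 high sugar. The cause was not tested. Separated genes were 609 higher and 138 lower with median-of-ratios scaling and 146 and 64 with a mean of at least 5; leaving out a sample gave 465 to 597 higher and 295 to 378 lower for controls, and 409 to 716 (455 without library 76) and 290 to 435 for high sugar. The Dcr-2 change of -1.374 passed the threshold with the spread shared over 26 libraries. Of the 22 called genes none reversed in the alternatives run; CG3348 and obst-J lost the call in 3 of 20, Gpdh in 12 of 20. Scalings of the separated genes, leaving out samples there and in the gene lists, and leaving out w1118 r4 libraries were chosen after seeing the data.

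No paired analysis was possible because the diets share no library number; the 2 ranges of numbers entered as a batch term, which pairs no libraries. Depth is unknown, and with 3 samples per diet a gene missing the threshold is not shown to be unaffected.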
